A study of Mus musculus with 6 samples.

Results

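The complement genes followed here were 8 genes of the 39179 counted in mouse bone marrow, taken as a list of symbols and matched to the Ensembl identifiers of the count files. They were the 3 chains of C1q (*C1qa*, *C1qb* and *C1qc*), *C3* with the alternative pathway genes *Cfb* and *Cfp*, and the anaphylatoxin receptor genes *C3ar1* and *C5ar1*. The RNA came from bone marrow of 6 mice born as littermates, 3 *MxCDX2* and 3 controls. *MxCDX2* mice carried both *RsCDX2*, a knockin at *Rosa26* of the human *CDX2* coding sequence behind a stop sequence that Cre recombinase removes, and *Mx1Cre*, a Cre transgene driven by the *Mx1* promoter, which interferon switches on. This promoter responds in many cell types rather than in a single blood lineage. Each control was the single mouse of its genotype: control 1 carried *RsCDX2* without Cre, control 2 carried *Mx1Cre* without the knockin, and control 3 was wild type. All 6 were 3 months old when they received poly(I:C), a synthetic double-stranded RNA that elicits interferon, in 3 intraperitoneal injections of 10 µg per g of body weight, and all were examined 6 weeks later.

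Complement is a cascade of plasma proteins that tags particles for phagocytosis and recruits leukocytes. C1q binds antibody complexes and dying cells and starts the classical pathway, C3 is the protein on which all pathways converge, and factor B (*Cfb*) and properdin (*Cfp*) build and stabilize the C3-cleaving enzyme of the alternative pathway. The receptors encoded by *C3ar1* and *C5ar1* detect the small fragments released from C3 and C5. Most plasma complement is made by the liver, whereas C1q comes mainly from tissue macrophages and dendritic cells, and properdin from neutrophils, monocytes and T cells.

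Between 38646101 and 49899650 reads per mouse fell on genes. Values below are normalized counts, that is reads scaled to a common library size, and a gene is said to have passed when edgeR's quasi-likelihood test gave a Benjamini-Hochberg adjusted p-value below 0.05 and an absolute log2 fold change above 1 between *MxCDX2* and control mice. The gene counted as *Cdx2* had between 152 and 161 normalized counts in *MxCDX2* mice and at most 5.11 in a control mouse, which matched the labels. Nothing went against the tissue label. The 12 erythroid markers summed to at least 1889600 normalized counts in each control mouse and to 56794 to 217660 in *MxCDX2* mice. The 6 hepatocyte markers together had at most 22.8 normalized counts in any mouse. These sums cannot tell bone marrow from another tissue rich in red cell precursors. The wild-type control stood apart from the other controls. The summed count of 6 megakaryocyte markers was 261960 in it, against 31240 and 21818 in controls 1 and 2.

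Of the 8 genes, 7 had enough reads to be tested. *Cfp* rose, *C1qa* and *C1qc* fell, and *C1qb*, *C3*, *C3ar1* and *C5ar1* did not pass. Across all 15980 tested genes 13.6% passed, made up of 4.59% higher and 9.03% lower in *MxCDX2* mice. In 4 of the 7 genes the 3 *MxCDX2* mice did not overlap the 3 control mice, against 42.1% of all tested genes. The median log2 fold change of the 7 genes was -0.74, and that of all tested genes was 0.00. The plot of normalized counts by mouse shows the 8 genes.

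**Figure D1:**
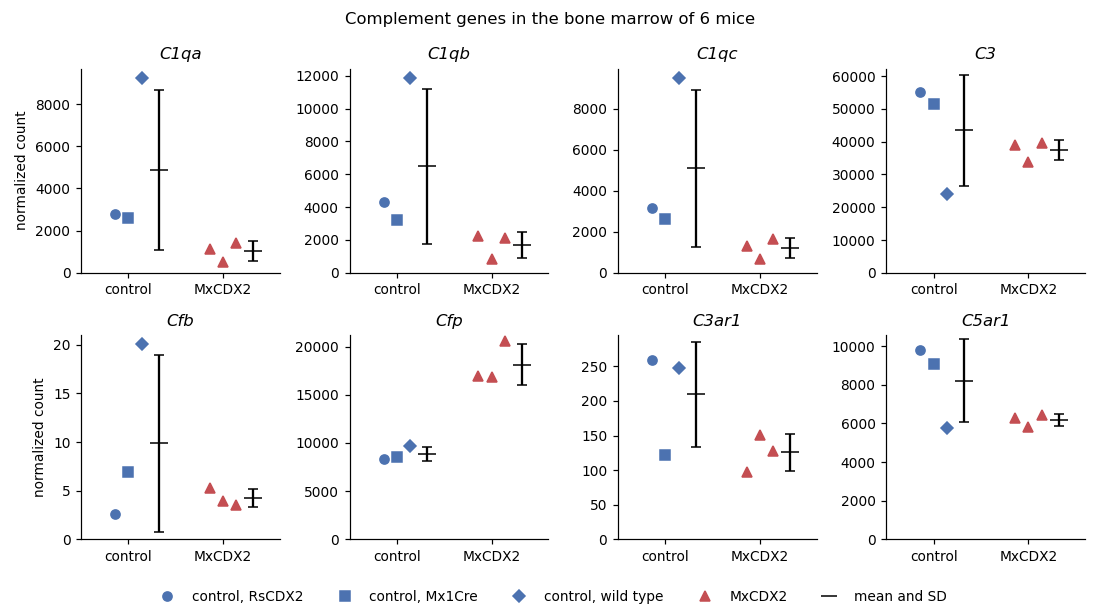
Normalized count (vertical axes, linear and starting at 0) of each of the 8 complement genes in the 3 control mice (blue, one symbol per genotype) and the 3 *MxCDX2* mice (red triangles), with the mean and SD of each group in black. The wild-type control (diamond) was the highest of the 6 mice for the 3 C1q chains and the lowest for *C3* and *C5ar1*, and *Cfp* was higher in every *MxCDX2* mouse than in every control.

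The C1q genes lie side by side on the minus strand of chromosome 4, in 18.7 kb from 136880129 to 136898803 (GRCm38), in the order *C1qb*, *C1qc*, *C1qa* along the chromosome. *C1qa* (ENSMUSG00000036887) had 2787, 2607 and 9248 normalized counts in controls 1, 2 and 3, and 1143, 489.8 and 1414 in *MxCDX2* mice 1, 2 and 3. *C1qc* (ENSMUSG00000036896) had 3159, 2610 and 9529 in the controls and 1290, 686 and 1635 in *MxCDX2* mice. *C1qb* (ENSMUSG00000036905) had 4333, 3235 and 11889 in the controls and 2228, 811 and 2090 in *MxCDX2* mice. For each chain the wild-type mouse was far above the other controls, *MxCDX2* mouse 2 was the lowest of all 6 mice, and the groups did not overlap.

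The mean of *C1qa* was 4881 ± 3784 (SD, n = 3) among controls and 1016 ± 475 (SD, n = 3) among *MxCDX2* mice, 4.81 times lower. In the fit over all genes this was a log2 fold change of -2.26 (standard error, SE, 0.62, adjusted p = 0.0427 by edgeR). *C1qc* had a log2 fold change of -2.08 (SE 0.57, adjusted p = 0.0431), and *C1qb* one of -1.92 (SE 0.59), with an adjusted p of 0.0602 that missed the threshold. The 95% intervals of the 3 log2 fold changes overlapped widely, from -3.74 to -0.79 for *C1qa* and from -3.33 to -0.52 for *C1qb*. An exact permutation test of 3 mice against 3 gave a two-sided p of 0.10 for each chain, the smallest it can give.

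These calls depended on single mice and on the test. The wild-type mouse had 3.43 times the mean of the other controls for *C1qa*, 3.14 times for *C1qb* and 3.30 times for *C1qc*. Without it, the log2 fold changes were -1.40, -1.13 and -1.25, with adjusted p-values of 0.0540, 0.1003 and 0.0457 (edgeR), so that *C1qc* passed and *C1qa* did not. Against controls 1 and 2 alone the mean of *C1qa* was 2.66 times lower in *MxCDX2* mice. None of the 3 chains passed when any single *MxCDX2* mouse was left out, with adjusted p-values of 0.0889 to 0.112 for *C1qa*, 0.101 to 0.143 for *C1qb* and 0.0895 to 0.123 for *C1qc*. Without control 1, *C1qa* passed and *C1qc* had an adjusted p of 0.0527, and without control 2 all 3 chains passed, *C1qb* with an adjusted p of 0.0495. The sign was negative in each of these fits. With limma voom neither *C1qa* (adjusted p just over 0.05) nor *C1qc* (adjusted p = 0.0522) passed. With DESeq2 *C1qa* (adjusted p = 0.00058), *C1qc* (adjusted p = 0.00083) and also *C1qb* (adjusted p = 0.00344) passed.

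**Figure D2:**
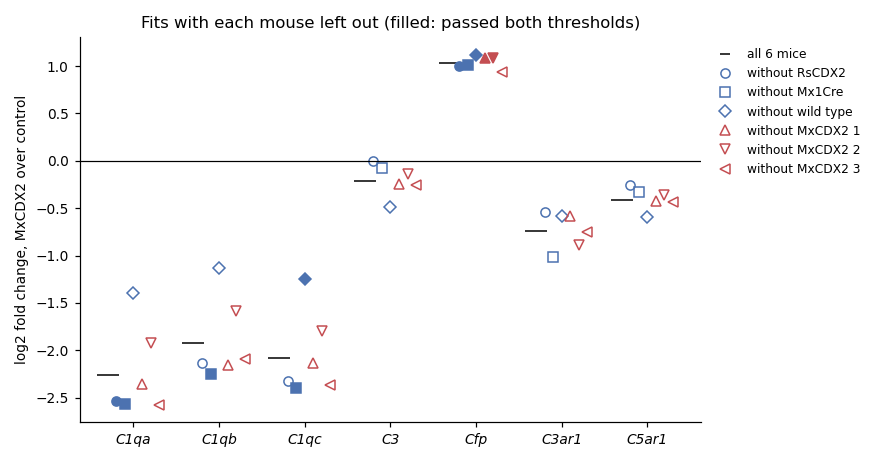
Log2 fold change of *MxCDX2* over control mice (vertical axis) of the 7 tested complement genes, with all 6 mice (black bar) and with each mouse left out in turn (blue symbols, a control left out; red, an *MxCDX2* mouse left out; filled when both thresholds were passed). The C1q chains came closest to 0 without the wild-type mouse, at -1.40, -1.13 and -1.25, and *Cfp* lay between 0.94 and 1.12.

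C1q protein contains its 3 chains in equal numbers, so the balance of the 3 mRNAs within a mouse was examined per kb of exon, a ratio that no scaling between mice can move. *C1qb* was the highest and *C1qc* the lowest of the chains per kb in all 6 mice. The place of *C1qc* rests on its annotated exon length, 1931 bases against 1040 for *C1qa* and 1088 for *C1qb*. Before division by length, *C1qc* was above *C1qa* in every mouse. The log2 ratio of *C1qa* to *C1qc* was 0.82 ± 0.09 (SD, n = 3) among controls and 0.60 ± 0.17 (SD, n = 3) among *MxCDX2* mice, a difference of -0.21 (exact permutation test, two-sided p = 0.20). That of *C1qb* to *C1qc* differed by 0.10 between the groups (exact permutation test, two-sided p = 0.80). The third ratio, *C1qa* to *C1qb*, was -0.37 ± 0.17 among controls and -0.69 ± 0.20 among *MxCDX2* mice (SD, n = 3 each), a difference of -0.31 (exact permutation test, two-sided p = 0.20). The wild-type mouse, at 0.85, 1.15 and -0.30, lay between the other controls on all 3 ratios, although its level of each chain was 3.14 to 3.43 times their mean. None of the 3 ratios differed detectably with 3 mice per group, a design in which a p below 0.10 is not attainable.

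Promoter windows from RefSeq (GRCm38.p6) were found for 6 of the 8 genes, *C1qa* and *Cfb* being the other two. Those of *C1qb* and *C1qc*, whose levels followed each other across the mice, and of *Cfp*, which rose, are shown, read 5′ to 3′ on the minus strand. *C1qb* and *C1qc* are given for the 250 bases before the RefSeq start, at chr4:136886201-136886450 and chr4:136892915-136893164, and *Cfp* with the first 30 transcribed bases as well, at chrX:20931526-20931805. Capitals mark GAGGAA, a core bound by PU.1 and other ETS factors, on either strand.
C1qb: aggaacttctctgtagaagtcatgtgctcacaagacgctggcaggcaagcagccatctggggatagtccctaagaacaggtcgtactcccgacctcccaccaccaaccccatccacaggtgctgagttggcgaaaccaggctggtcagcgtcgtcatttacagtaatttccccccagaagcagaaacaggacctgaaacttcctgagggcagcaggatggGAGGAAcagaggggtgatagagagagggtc
C1qc: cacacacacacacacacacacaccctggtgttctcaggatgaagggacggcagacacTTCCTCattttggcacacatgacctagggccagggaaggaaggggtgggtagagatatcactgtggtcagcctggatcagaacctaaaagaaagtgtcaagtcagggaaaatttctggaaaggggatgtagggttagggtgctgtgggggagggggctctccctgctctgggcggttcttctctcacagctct
Cfp: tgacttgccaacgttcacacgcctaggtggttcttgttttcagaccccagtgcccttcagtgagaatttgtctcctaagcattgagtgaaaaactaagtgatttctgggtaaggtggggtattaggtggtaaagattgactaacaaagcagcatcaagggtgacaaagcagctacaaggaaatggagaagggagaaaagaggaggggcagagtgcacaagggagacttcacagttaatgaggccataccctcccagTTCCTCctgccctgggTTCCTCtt

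Counted from the start with no position 0, the match in *C1qb* begins at -30, that in *C1qc* at -193 on the opposite strand, and those in *Cfp* at 7 and 23, also on the opposite strand. The windows of *C3*, *C3ar1* and *C5ar1*, which are not shown, held no GAGGAA. Of all 32851 windows of 300 bases, 28.3% held it. The CDX motif TTTATG was searched on both strands as well and was in none of the 6 windows, against 11.9% of all windows. With that share, 6 windows are too few to show a lack of the motif. The windows also reach only 250 bases upstream, a shorter stretch than the promoters that the authors searched for CDX sites. TTGCNNAA, a form of the C/EBP motif, was in the window of *C3* alone, at -45, and in 10.8% of all windows. These matches describe the letters of the windows only, and binding was not measured.

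C1q is a product of tissue macrophages, and a list of 16 macrophage markers was read beside it. Of these, 9 fell and 1 rose, with a median log2 fold change of -1.73. Of all tested genes, 9.03% fell and 4.59% rose. *Hmox1*, a heme-degrading enzyme, fell by 1.52 on the log2 scale (adjusted p = 0.0465 from edgeR), and *Apoe*, a lipid carrier, had a log2 fold change of -1.19 (adjusted p = 0.115). The other 14 markers were looked at after their values were seen. The iron exporter gene *Slc40a1* (-2.33), the transcription factor gene *Spic* (-3.20), the scavenger genes *Cd5l* (-3.47) and *Marco* (-3.82), the phagocytic receptor genes *Mertk* (-2.57), *Axl* (-1.94) and *Timd4* (-2.34) and the adhesion molecule gene *Vcam1* (-2.04) fell. *Cd68* (0.82, adjusted p = 0.0137) and *Adgre1* (0.75, adjusted p = 0.0850), both widely used to mark macrophages, did not pass, although each was higher in every *MxCDX2* mouse than in every control. The receptor genes *Mrc1* (0.01), *Cd163* (-0.27) and *Siglec1* (-0.46) did not pass and overlapped between the groups. *Trem2*, a lipid receptor of macrophages, rose, with a log2 fold change of 1.12 (adjusted p = 0.0121).

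Like the C1q chains, 13 of the 16 macrophage markers were highest in the wild-type mouse, against 23.7% of all tested genes. This was not particular to macrophage markers. The wild-type mouse was also highest for 6 of 6 megakaryocyte, 7 of 8 stromal, 9 of 10 dendritic cell and 6 of 8 T and NK cell markers. It was highest for 3 of 12 erythroid, 1 of 12 monocyte, 0 of 12 neutrophil and 0 of 8 B-cell markers. The summed count of the macrophage list ranged from 64328 to 143270 among controls and from 39130 to 48508 among *MxCDX2* mice. Its count of falls was 9 with all mice, 7 without the wild-type mouse or without control 1, 4 without *MxCDX2* mouse 1 or 3 and 1 without *MxCDX2* mouse 2, and its count of rises was 3 without the wild-type mouse and 0 without *MxCDX2* mouse 2. The mean log2 count of the C1q chains minus that of the macrophage list was 1.19, 0.74 and 1.47 in controls 1, 2 and 3. It was 0.87, -0.13 and 0.73 in *MxCDX2* mice 1, 2 and 3, so the groups overlapped through *MxCDX2* mouse 1 alone. The group means of this score differed by -0.64. Overlap was not particular to the macrophage list. Taken against the neutrophil list, the groups overlapped as well, with a difference of -0.40. Taken against the monocyte list, they did not overlap, with a difference of -3.12. In bulk RNA, fewer cells of a type and less RNA per cell cannot be told apart.

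Of 12 monocyte markers, 6 rose and none fell, against 4.59% higher and 9.03% lower of all tested genes. Their summed count was 297810 to 445630 in control and 633660 to 742680 in *MxCDX2* mice. *F13a1*, which encodes a coagulation factor chain, rose by 3.06 on the log2 scale (adjusted p = 0.00345 from edgeR), whereas *Lyz2*, the macrophage and granulocyte lysozyme, had a log2 fold change of 0.23 (adjusted p = 0.589). The number that rose was 6 in each fit that left out 1 mouse, and 1 marker fell without control 2 or without the wild-type mouse. Of 12 neutrophil markers, 9 fell, with a median of -1.57 and summed counts of 2118800 to 3303800 in control and 870590 to 1209700 in *MxCDX2* mice, among them *S100a8* (-1.53) and *S100a9* (-1.56). The number of neutrophil markers that fell was between 5 and 11 when 1 mouse was left out, with 5 without *MxCDX2* mouse 3. 

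Dendritic cells are another source of C1q, and 2 of their 10 markers fell. Their summed counts, 58269 to 118760 in control and 36177 to 81496 in *MxCDX2* mice, overlapped, and 9 of the 10 were highest in the wild-type mouse. All 12 erythroid markers fell, from summed counts of 1889600 to 2245200 down to 56794 to 217660. Of 8 markers of T and NK cells 2 fell (summed counts 6269 to 12115 against 2719 to 5445), of 6 of megakaryocytes 2 fell (21818 to 261960 against 9941 to 13718) and of 8 of stromal cells 2 fell (17820 to 60963 against 10973 to 19807). None of the markers in these lists rose. The shares of all tested genes were 9.03% lower and 4.59% higher. Without the wild-type mouse 4 megakaryocyte markers, 2 of T and NK cells, 2 of dendritic cells and 0 of stromal cells fell, and 1 of dendritic cells rose. With any single mouse left out, the markers that fell numbered 0 to 4 for megakaryocytes, 0 to 2 for T and NK cells, 0 to 2 for dendritic cells and 0 to 3 for stromal cells. All 12 erythroid markers fell in these fits except without *MxCDX2* mouse 3, when 7 did. The part of these shifts in the results for the complement genes was not tested.

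**Figure D3:**
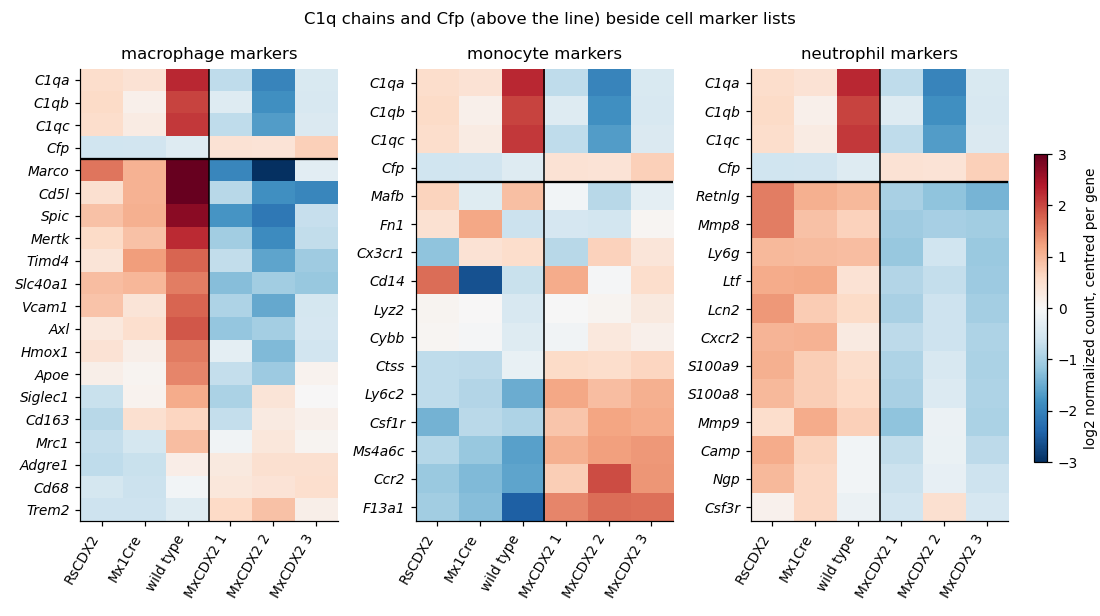
Log2 normalized count of each gene in each mouse, centred on the gene's mean over the 6 mice (color scale, with values beyond 3 drawn at its end), for the C1q chains and *Cfp* above the line and, below it, 16 macrophage, 12 monocyte and 12 neutrophil markers. The 3 columns to the left of the upright line are the control mice. The C1q chains were highest in the wild-type mouse, as were 13 of the 16 macrophage, 1 of the 12 monocyte and 0 of the 12 neutrophil markers. Most megakaryocyte, stromal, dendritic cell and T and NK cell markers, not drawn, were also highest in it. *Cfp* was higher in the *MxCDX2* columns, as were the 6 monocyte markers that rose.

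The genes with the profile nearest to the mean of the C1q chains over the 6 mice were *Nckap1*, *Dpep1*, *Ccr9*, *Egfr* and *Tgfbr3*. *Ccr9* belongs to the list of dendritic cell markers, and none of the 5 is in the macrophage list. The measure was the root mean square difference of centred log2 counts, which was 0.16 to 0.19 for these 5 and had a median of 1.26 over 11975 genes. *Nckap1*, for example, had 995, 787 and 3456 normalized counts in controls 1, 2 and 3 and 397, 205 and 404 in *MxCDX2* mice. All points share the same 6 libraries, so this is a description of likeness.

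*Cfp* (ENSMUSG00000001128), at bases 20925454 to 20931555 of chromosome X (minus strand, GRCm38), encodes properdin, the positive regulator of the alternative pathway. It had 8344, 8541 and 9695 normalized counts in controls 1, 2 and 3, and 16964, 16861 and 20585 in *MxCDX2* mice 1, 2 and 3. The spread within each group was small, with a highest-to-lowest ratio of 1.16 in control and 1.22 in *MxCDX2* mice, and every *MxCDX2* mouse was above every control. Controls averaged 8860 ± 729.7 and *MxCDX2* mice 18137 ± 2121 (SD, n = 3 each), 2.05 times higher in *MxCDX2* mice. The log2 fold change was 1.03 (SE 0.13, adjusted p = 0.00359 by edgeR), with a 95% interval from 0.72 to 1.34 that includes the fold threshold of 1. The exact permutation test gave its smallest two-sided p, 0.10. Without *MxCDX2* mouse 3 the log2 fold change was 0.94 (adjusted p = 0.0210), below the fold threshold, and *Cfp* passed in the other 5 fits that left out 1 mouse. Its nearest profiles were those of *Lamp1*, *Lrpap1* and *Paox*, with root mean square differences of 0.05, 0.05 and 0.06 against a median of 0.56.

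*C3* (ENSMUSG00000024164), at bases 57203970 to 57228136 of chromosome 17 (minus strand), was the most abundant of the 8 genes per kb of exon in controls 1 and 2. It had 55035, 51519 and 24013 normalized counts in controls 1, 2 and 3, and 39009, 33798 and 39577 in *MxCDX2* mice. The wild-type mouse was the lowest of all 6, and the *MxCDX2* mice lay between it and the other controls. The log2 fold change was -0.22 (SE 0.31, adjusted p = 0.664 from edgeR), with a 95% interval from -0.96 to 0.52 (exact permutation test, two-sided p = 0.90). Without the wild-type mouse it was -0.49 (adjusted p = 0.0315), short of the fold threshold, and without control 1 it was 0.00 (adjusted p = 0.999, edgeR). Per kb, *C3* exceeded *Cfp* in controls 1 and 2, with log2 ratios of 1.15 and 1.03, and was below it in the wild-type mouse (-0.26) and in *MxCDX2* mice (-0.37, -0.56 and -0.62). This ratio did not overlap between the groups (exact permutation test, two-sided p = 0.10).

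*Cfb* (ENSMUSG00000090231), which encodes the protease of the alternative pathway convertase, lies at bases 34856374 to 34862518 of chromosome 17 (minus strand). Between 2 and 22 reads per mouse were counted on it, which was too few to be tested after the filter. Its normalized counts were 2.56, 6.95 and 20.1 in controls 1, 2 and 3 and 5.30, 3.92 and 3.48 in *MxCDX2* mice, so the groups overlapped. Fitted without the filter, it had a log2 fold change of -1.21 (adjusted p = 0.381 by edgeR). Of its exon length, 79.5% is also exon of the longer gene *Gm20547* on the same strand, and *Gm20547* had no reads in any mouse. Reads that lie in exons of more than one gene are set aside as ambiguous under the usual HTSeq rule, so this low count does not show how much *Cfb* mRNA was present.

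The anaphylatoxin receptor genes did not pass. *C5ar1* (ENSMUSG00000049130), on chromosome 7 from 16246743 to 16259540, had 9790, 9083 and 5777 normalized counts in controls 1, 2 and 3 and 6303, 5834 and 6427 in *MxCDX2* mice. As for *C3*, the wild-type mouse was the lowest of the 6 and the other controls were the highest. The log2 fold change was -0.41 (SE 0.20, adjusted p = 0.191 from edgeR), with a 95% interval from -0.88 to 0.06, and without the wild-type mouse it was -0.59 (adjusted p = 0.00664), short of the fold threshold. *C3ar1* (ENSMUSG00000040552), on chromosome 6 from 122847138 to 122856161, was scarce, with 259, 122 and 248 normalized counts in controls and 97.5, 151 and 128 in *MxCDX2* mice. The difference on the log2 scale was -0.74 (SE 0.36, adjusted p = 0.189), with a 95% interval from -1.60 to 0.11, and control 2 lay among the *MxCDX2* mice. Per kb of exon *C5ar1* exceeded *C3ar1* in every mouse, by 5.29 to 6.96 on the log2 scale.

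The order of levels per kb of exon was the same in *MxCDX2* mice 1, 2 and 3: *Cfp*, *C3*, *C5ar1*, *C1qb*, *C1qa*, *C1qc*, *C3ar1* and *Cfb*. In controls 1 and 2 *C3* came before *Cfp*, and *C1qa* and *C1qc* held the same places as in *MxCDX2* mice. In the wild-type mouse *C1qb* and *C1qa* came first, with 10928 and 8893 normalized counts per kb, and *C3* came after the 3 chains and *Cfp*, with 4669. The means per kb of *Cfp* were 5104 in control and 10447 in *MxCDX2* mice, and those of *C3* were 8463 and 7284.

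The other genes of the pathway were taken from lists of 47 known complement genes, all of them in the files, of which 29 were tested. Of the 29, 6 fell, 1 rose and 22 did not pass, with a median log2 fold change of -1.05, and 10 did not overlap between the groups. The shares of all tested genes were 9.03% lower, 4.59% higher and 42.1% without overlap, so the 34.5% of these 29 that did not overlap was below that of all genes. Without the wild-type mouse, 8 fell and 1 rose. Among proteins of the cascade, *Fcna*, which encodes ficolin A, a lectin that binds sugars on microbes, had 2223 ± 1039 normalized counts among controls and 252 ± 219.9 among *MxCDX2* mice (SD, n = 3 each) and fell, with a log2 fold change of -3.13 (adjusted p = 0.0191 from edgeR). *Hc*, the mouse gene of C5, had a log2 fold change of -2.49 (adjusted p = 0.00759) at a low level, 34.4 against 6.02. *Fcnb*, the ficolin of granulocytes, had 15279 ± 9405 and 9223 ± 2413 (SD, n = 3 each) and did not pass (adjusted p = 0.356).

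Of the 6 genes that fell, 3 encode proteins that limit complement. *Cd55*, which speeds the decay of C3-cleaving enzymes on cell surfaces, fell from 2577 ± 632 to 486 ± 112 (SD, n = 3 each), with a log2 fold change of -2.41 (SE 0.25, adjusted p = 0.00231 from edgeR). *Cd59a* and *Cd59b*, inhibitors of the membrane attack complex, had log2 fold changes of -3.17 and -3.30 (adjusted p = 0.00401 and 0.00929). Of the 8 tested regulators in their list, these 3 fell and none rose, against 9.03% lower and 4.59% higher of all tested genes, and 37.5% did not overlap between the groups, against 42.1%. *Clu*, which encodes the terminal pathway inhibitor clusterin, was not called at -2.09 (adjusted p = 0.120), its count being 12516 in wild type but no more than 2324 in the other 5 mice. *Cd59a* and *Cd59b* are similar copies, between which the counting could have split reads.

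Among receptors other than *C3ar1* and *C5ar1*, *Cr2*, the receptor for C3 fragments on B cells, fell with a log2 fold change of -2.86 (adjusted p = 0.00710 from edgeR). Of the 8 B-cell markers 5 fell as well, against 9.03% of all tested genes. Their summed count was 19351 to 50791 in control and 4349 to 14114 in *MxCDX2* mice. The number of B-cell markers that fell was 7 without the wild-type mouse, 1 without control 1 or *MxCDX2* mouse 2, and 0 without control 2 or *MxCDX2* mouse 3. *Cd93*, once described as a receptor for C1q, was the gene that rose. It had 9490, 8781 and 4866 normalized counts in controls 1, 2 and 3 and 20263, 19270 and 20507 in *MxCDX2* mice, with a log2 fold change of 1.38 (SE 0.25, adjusted p = 0.0115). The chains of complement receptor 3, *Itgam* and *Itgb2*, were the most abundant genes of the lists and had log2 fold changes of -0.48 and -0.33 (adjusted p = 0.184 and 0.187). Of *Itgam*, 68.7% of the exon length is shared with another annotated gene on the same strand that is not in the files. With 1 mouse left out, 5 of these 7 called genes passed in all 6 fits. *Fcna* was lost without *MxCDX2* mouse 2 (adjusted p = 0.0667) and *Cd59b* without *MxCDX2* mouse 3 (adjusted p = 0.0502).

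**Figure D4:**
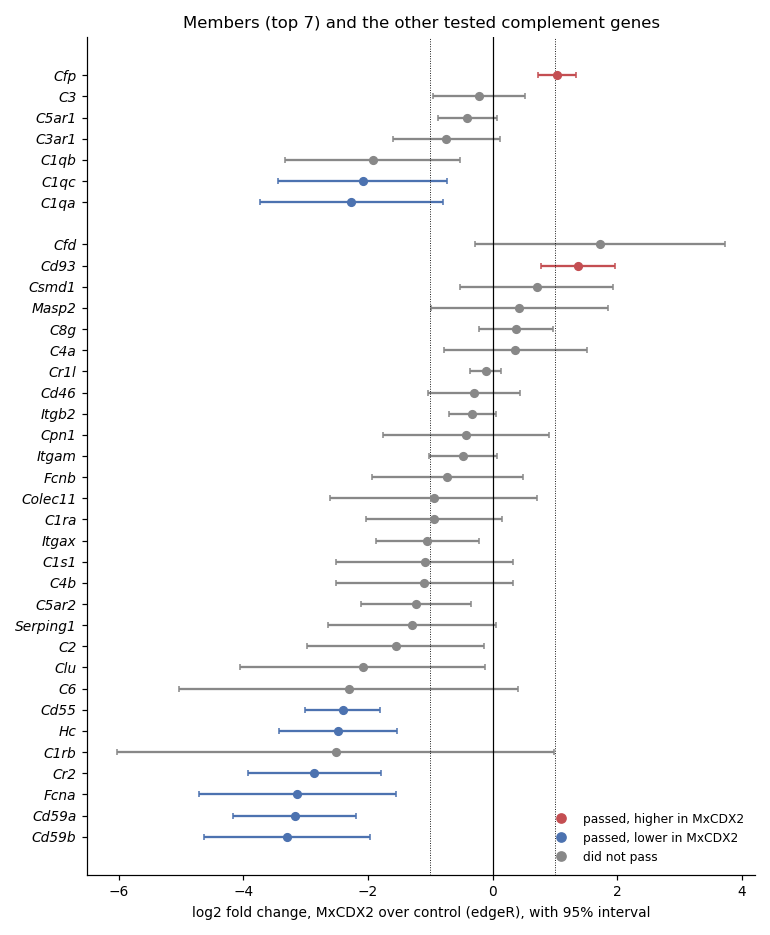
Log2 fold change of *MxCDX2* over control mice with its 95% interval (edgeR, horizontal axis) for the 7 tested members at the top and the 29 other tested complement genes below, colored by whether both thresholds were passed (dotted lines at -1 and 1). *Cfp* and *Cd93* rose, and *C1qa*, *C1qc* and 6 other genes, of which *Cd59b* was lowest at -3.30, fell.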

How the data were processed

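Bone marrow RNA of 6 mice was sequenced as stranded mRNA libraries. Per the methods and the labels, the authors aligned reads with STAR (2.5) to GRCm38 and counted them with HTSeq (0.6.1), and they deposited raw counts per Ensembl gene. The strand setting and overlap mode of the counting are not given in the sources used here. Lines that name no gene were left out. They were 9.22% to 14.1% of reads for no feature and 2.99% to 3.16% for ambiguous reads.

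Symbols, positions and exon lengths came from GENCODE M21 (GRCm38), which held 37607 of the 39179 identifiers. Counts were analyzed in R 4.3.3 with edgeR 4.0.16 (TMM, filterByExpr, glmQLFit, glmQLFTest), without covariates. P-values were adjusted over all 15980 tested genes, and the thresholds were those of the methods. Standard errors came from the F statistic, and 95% intervals from it and the total degrees of freedom. Likeness used log2 of the normalized count plus 0.5, over tested genes averaging 100 normalized counts or more. The fits were first tested on simulated data in which 200 genes changed. Alternatives used DESeq2 1.42.0 and limma 3.58.1 (voom). Tables and figures were made with Python 3.11.15, pandas 2.3.3, scipy 1.17.1 and matplotlib 3.10.9.

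The members and gene lists were chosen with earlier results of these data known. The genes named were the 8 members, the pathway genes that passed, the 4 most abundant that did not, *Cdx2*, and the nearest profiles (5 for C1q, 3 for each other member). Of the macrophage, monocyte and neutrophil marker lists the 2 most abundant were named, and the remaining macrophage markers were added. The other cell marker lists are given as counts and sums, without naming their genes by this rule. A few genes that these rules would name are not reported here, and the pathway counts leave them out. Mice of a group differed by far more than sampling noise (chi-square per degree of freedom of at least 58.5), so none was taken for a repeat of another.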

Additional observations from a re-analysis of the deposited data

How the results depend on the processing

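Over all genes 2177 passed, and the count fell to 1043 with an adjusted p below 0.01 and lay between 1205 and 2406 with 1 mouse left out. Total counts in place of TMM moved the median log2 fold change of all genes by 0.12, and it, DESeq2's size factors, the fit that left the erythroid markers and the 10 most abundant genes out of the scaling, and the filter of 10 counts in every sample changed no call of a member. With an adjusted p below 0.01, 1 member (*Cfp*) passed and 0 members fell, since *C1qa* (-2.26) and *C1qc* (-2.08) no longer passed, and 5 other pathway genes passed, 0 of them higher. With limma's voom, 1 member passed and 0 fell, with *C1qa* at -2.12 (adjusted p just over 0.05) and *C1qc* at -1.91 (adjusted p = 0.0522). *C1qb* passed with DESeq2 (-1.91) and with every gene that had a count (-1.89). The other pathway genes that passed numbered 15 with DESeq2, 14 of them lower, and 11 with every gene that had a count, 10 of them lower. With 1 mouse left out, 0 to 4 members passed, 0 to 1 higher and 0 to 3 lower, and 6 to 9 other pathway genes, 5 to 8 lower and 1 higher. The log2 fold changes then ranged from -2.57 to -1.40 for *C1qa*, -2.25 to -1.13 for *C1qb*, -2.40 to -1.25 for *C1qc*, -0.49 to 0.00 for *C3* (0.00043 without control 1, where its sign changed) and 0.94 to 1.12 for *Cfp*. No paired analysis was possible because the labels give the control mice, each of another genotype, no replicate number that they share with the *MxCDX2* mice. Depth does not limit the abundant members, whereas *C3ar1* and above all *Cfb* had few reads.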

Other observations

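The profiles nearest to the members that did not pass were also listed. For *C3* they were *Peli2*, *Nedd9* and *Lrr1*, with root mean square differences of centred log2 counts of 0.07, 0.08 and 0.11 over the 6 mice. For *C5ar1* they included the chromosome condensation and segregation genes *Ncapd3* and *Kntc1*, at 0.06 and 0.07. *Ncapd3* had 8480, 7306 and 5231 normalized counts in controls 1, 2 and 3 and 5474, 5178 and 5315 in *MxCDX2* mice. No profile of *C3ar1* was nearer than 0.21 (*Mthfsl*, *Rilpl1* and *Zfp239*), and none of *Cfb* nearer than 0.24 (*Mycl*, *Tlr12* and *Tmem221*).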
